A study of Homo sapiens with 60 samples.

Results

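The human mitochondrial genome carries 37 genes, and all 37 were rows of the deposited table: 13 mRNAs, 2 rRNAs and 22 tRNAs, chosen as every gene whose symbol begins with MT-, out of 60675 genes in all. They were followed in A549 cells, an established human lung adenocarcinoma line, by directional RNA sequencing after 24 h of treatment. The treated groups received hot-water extracts, each labelled 20, 100 and 500 µg/mL, and they were set against vehicle, labelled 0.1% DMSO. Menthae Herba and Saposhnikoviae Radix are single herbs. The multi-herb decoctions were Okbyeongpung-san, Soyo-san, Guibi-tang, Saengmaek-san and, with 1 library per dose, Soshiho-tang. For the vehicle the series description gives 2% DMSO instead, and it says that toxic extracts were given at lower concentrations than those labelled. The other 6 extracts and vehicle had 3 libraries per group, and every group shared the same cell line and culture conditions. Whether replicate libraries stem from independent cultures is not given in the labels, and p-values therefore cover the spread among the sequenced libraries, which may be technical.

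Mitochondrial DNA is transcribed inside the organelle by a dedicated RNA polymerase, from both strands and as long precursors that span many genes. The tRNAs punctuate these precursors, and their excision frees most of the mRNAs and rRNAs. The mRNAs receive short poly(A) tails and encode subunits of respiratory complexes I, III and IV and of ATP synthase, while the rRNAs form the core of the mitochondrial ribosome. All other subunits and all factors of the system are nuclear genes.

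The pairs MT-ATP8 with MT-ATP6 and MT-ND4L with MT-ND4 each share a stretch of sequence and are known to lie on a common mRNA. MT-ATP8 encodes a small membrane subunit of ATP synthase and MT-ND4L a small membrane subunit of complex I. They are printed here because they marked the ends of the range of differences described below: MT-ATP8 differed the most among the 15 mRNAs and rRNAs and MT-ND4L the least. Both are given 5′ to 3′ from GENCODE 29 on GRCh38, + strand of chromosome MT, and capitals mark the bases shared with the following gene, 46 in MT-ATP8 (positions 8366 to 8572) and 7 in MT-ND4L (positions 10470 to 10766).
MT-ATP8: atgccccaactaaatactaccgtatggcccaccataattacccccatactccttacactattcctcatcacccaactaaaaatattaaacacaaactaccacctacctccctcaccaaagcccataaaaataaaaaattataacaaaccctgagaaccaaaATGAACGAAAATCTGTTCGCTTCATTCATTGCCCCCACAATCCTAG
MT-ND4L: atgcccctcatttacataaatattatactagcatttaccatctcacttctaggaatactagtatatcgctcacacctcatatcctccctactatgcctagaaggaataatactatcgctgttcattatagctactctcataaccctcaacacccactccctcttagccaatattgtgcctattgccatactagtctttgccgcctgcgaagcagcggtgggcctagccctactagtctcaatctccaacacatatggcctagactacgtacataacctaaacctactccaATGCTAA
RSEM divides reads that fit both genes of a pair by estimate. The MT-ATP8 counts had a fractional part in some libraries. Those of MT-ND4L were whole in every library, so no division of reads shows in its values.

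Library totals ran from 18330631 to 35308811 counts. The keratin KRT8 had 3005 counts per 1000000 (CPM) in the last 29 libraries of the column order and 3285 CPM in the first 31. Among the other A549 epithelial markers listed, KRT18 had 2548 and 2530 CPM on the same sides, AKR1B10 2189 and 2745, and ALDH3A1 741 and 798. CDH1 was lower, at 32.6 and 32.0 CPM, as were KRT19 at 24.7 and 26.0 CPM and EPCAM at 4.73 and 4.64 CPM. PTPRC, CD3D, PECAM1, VWF, HBB, ALB and DES, which mark blood, endothelial, liver and muscle cells, were all under 0.1 CPM on average on both sides. The other 3 of the 10 markers listed for other cells were detected. CD68, a lysosomal protein used as a macrophage marker, had 13.7 ± 2.43 CPM in the last 29 libraries and 9.51 ± 1.58 CPM in the first 31, and 14 of the 29 lay above all of the 31. The collagens COL1A1 and COL3A1 had 30.6 and 4.64 CPM in the last 29 libraries and 33.1 and 5.57 CPM in the first 31. The 10 markers summed to 40.8 to 54.9 CPM in the last 29 libraries and 43.1 to 57.6 CPM in the first 31, and their part in the results was not tested. The column order of the table has a step after the 31st library. Before it lie vehicle and the herbs, with 6 Saengmaek-san and 4 Guibi-tang libraries. After it lie 3 Saengmaek-san and 5 Guibi-tang libraries and every library of the remaining decoctions. The labels name no batch there, and the position of the step was chosen with these data known, so the difference across it is described without a test.

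The 37 genes supplied a larger share of the counts in the later libraries. Their share was 16.1% ± 2.26 in the last 29 libraries (SD; lowest 12.9%, median 15.1%, highest 22.2%) and 11.9% ± 0.747 in the first 31 (lowest 10.7%, median 11.8%, highest 13.9%), a ratio of 1.35. Of the last 29 libraries, 25 were above every one of the first 31, and all 29 were above the 3 vehicle libraries, which had 12.1%, 12.4% and 12.5%. The mRNAs and the rRNAs both had larger shares: the 13 mRNAs held 12.1% ± 1.87 of counts in the last 29 libraries and 8.82% ± 0.657 in the first 31, and the 2 rRNAs held 3.96% ± 0.435 and 3.08% ± 0.150. Depth moved with the step as well, at 22915099 ± 2569185 counts in the last 29 libraries and 26047838 ± 3724350 in the first 31, and its part in the difference was not tested.

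**Figure D1:**
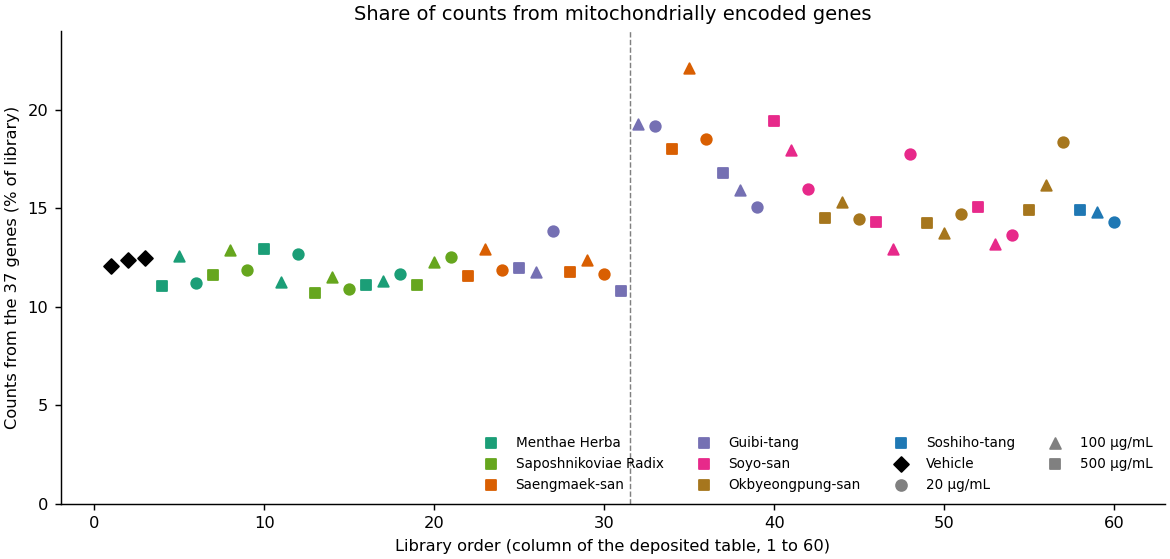
Share of counts from the 37 genes, in percent of the library total, for each of the 60 libraries in the column order of the deposited table. Colour gives the extract, the marker gives the labelled dose, black diamonds are vehicle, and the dashed line lies after the 31st library. The share stays between 10.7% and 13.9% on the left of the line and between 12.9% and 22.2% on the right.

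Both extracts that lie on both sides of the step showed the same difference within the extract. Saengmaek-san libraries had 18.02%, 18.5% and 22.2% after the step, against 11.6% to 12.96% in its 6 libraries before it. Guibi-tang libraries had 15.1%, 15.9%, 16.8%, 19.2% and 19.3% after the step, against 10.8%, 11.8%, 11.97% and 13.9% before it. Neither extract had overlapping values. The share also varied more after the step: the 8 later libraries of the Saengmaek-san and Guibi-tang set averaged 18.1%, the 18 of Soyo-san and Okbyeongpung-san 15.4% and the 3 of Soshiho-tang 14.7%.

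Dose ordered the share far less than position did. In the last 29 libraries the mean was 16.2% at 20 µg/mL, 16.2% at 100 µg/mL and 15.8% at 500 µg/mL, with SDs of 1.85 to 2.92. Before the step it was 12.03%, 12.1% and 11.5% at the same doses, with SDs of 0.665 to 0.885. Saposhnikoviae Radix at 500 µg/mL had 11.6%, 10.7% and 11.1%, all below the vehicle libraries. Menthae Herba at 500 µg/mL had 11.1%, 12.9% and 11.1%, on both sides of vehicle.

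By group, every library of the 3 decoctions that lie wholly after the step had a larger share than the 3 vehicle libraries, at each dose. Soyo-san averaged 15.8% ± 2.07 at 20 µg/mL, 14.7% ± 2.84 at 100 µg/mL and 16.3% ± 2.76 at 500 µg/mL (SD, n = 3 each), and vehicle 12.3% ± 0.225. Okbyeongpung-san averaged 15.8% ± 2.20, 15.1% ± 1.22 and 14.6% ± 0.318 at the same doses, and the single Soshiho-tang libraries had 14.3%, 14.8% and 14.9%. In Saengmaek-san and Guibi-tang, whose groups mix both sides, the SD within a group was 2.80 to 5.48, against 0.463 to 1.07 in the herbs.

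Among the 15 mRNAs and rRNAs, mean CPM was higher in the last 29 libraries for all 15, by 0.11 to 0.80 on the log2 scale, with a median of 0.47. Over all 17256 genes that passed the filter on low counts the median was -0.08, and 29.9% had a value above 0. CPM is a share of the library, so a larger mitochondrial share lowers the CPM of all other genes, here by 0.07 on the log2 scale. Per 1000000 counts outside the 37 genes, the median over all genes was -0.01, and the 15 genes again were all higher, by 0.18 to 0.88.

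MT-ATP8 had the largest difference. Its level in the last 29 libraries was 1564 CPM at the lowest, 2031 CPM at the median and 3580 CPM at the highest, against 940, 1229 and 1778 CPM in the first 31. The means were 2212 ± 650 and 1272 ± 215 CPM, a log2 difference of 0.80, and 19 of the last 29 libraries were above every one of the first 31. The difference was 1.18 within Saengmaek-san and 1.03 within Guibi-tang. Of all tested genes, 0.568% had a log2 difference at least as large as that of MT-ATP8.

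MT-ND4L, with the sequence printed above, stood at the other end. It had 1335 CPM at the lowest, 1591 CPM at the median and 1991 CPM at the highest in the last 29 libraries, against 1281, 1527 and 1787 CPM in the first 31. The log2 difference was 0.11, the sides overlapped broadly, and only 5 of the last 29 libraries lay above all of the first 31. Within Saengmaek-san the difference was 0.30 and within Guibi-tang 0.18. The ratio of MT-ATP8 to MT-ND4L counts was 1.36 ± 0.299 in the last 29 libraries and 0.849 ± 0.1101 in the first 31, with 21 of the 29 above all of the 31.

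**Figure D2:**
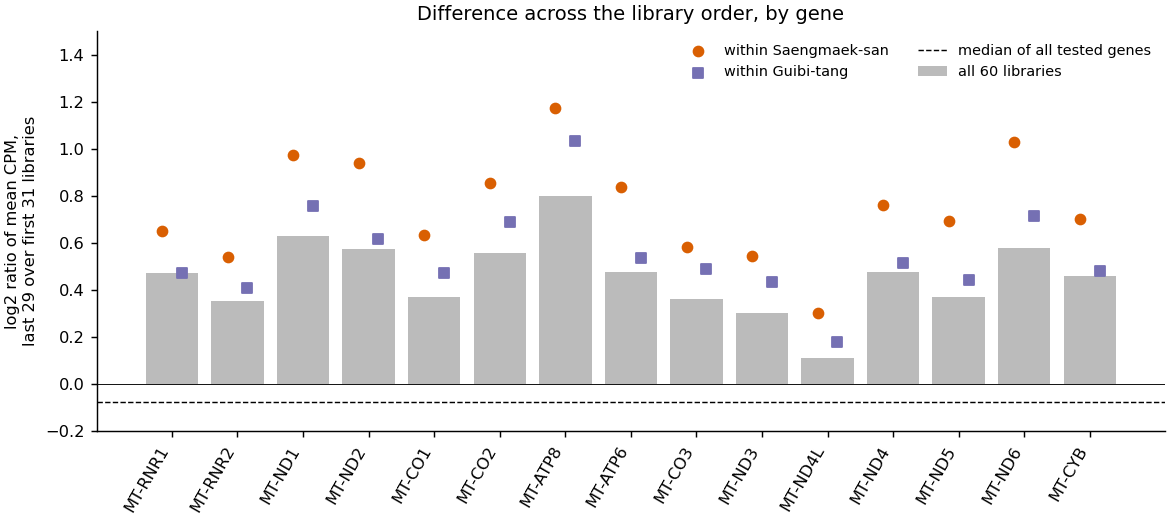
Log2 ratio of mean CPM in the last 29 over the first 31 libraries for the 15 mRNAs and rRNAs, in gene order along the mitochondrial genome. Bars use all 60 libraries, points use the libraries of Saengmaek-san or Guibi-tang alone, and the dashed line is the median over all tested genes, -0.08. MT-ATP8 is highest and MT-ND4L lowest in all 3 sets of values.

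The rRNAs separated the sides without overlap. MT-RNR1, the rRNA of the small ribosomal subunit, had 2013 to 2966 CPM with a median of 2305 CPM in the last 29 libraries, against 1466 to 1890 CPM with a median of 1723 CPM in the first 31. MT-RNR2, the rRNA of the large subunit, had 31946 to 46440 CPM with a median of 35865 CPM, against 26618 to 31815 CPM with a median of 29116 CPM. These were the only members of the 15 whose sides did not overlap, and 5 of all 17256 tested genes, or 0.029%, were higher in every later library. The other 3 were MGST1, UBALD1 and MTATP6P1, a nuclear copy of MT-ATP6. In the opposite direction 167 genes, or 0.968%, were lower in every later library. Per 1000000 counts outside the 37 genes, MT-RNR1 kept its separation and MT-RNR2 did not, among 20 genes that were higher without overlap. Within Saengmaek-san the sides did not overlap for 15 of 15 genes, where 4.46% of tested genes were higher without overlap. Within Guibi-tang this held for 12 of 15, the exceptions being MT-ND2, MT-ATP6 and MT-ND4L, where 4.62% of tested genes were higher without overlap.

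The complex I subunits spread over nearly the whole range of differences. MT-ND1, a membrane subunit encoded next to the rRNAs, had 9870 ± 1777 CPM in the last 29 libraries and 6389 ± 641 CPM in the first 31, a log2 difference of 0.63, and 28 of the 29 libraries lay above all of the 31. MT-ND2, also in the membrane arm, had 9182 ± 1876 CPM in the last 29 libraries and 6174 ± 745 CPM in the first 31, a difference of 0.57, with 19 of the 29 above all of the 31. MT-ND4, the most abundant complex I mRNA, had 17866 ± 3078 and 12859 ± 1051 CPM on the same sides, a difference of 0.47. MT-ND1 thus came near to separating the sides, while MT-ND2 and MT-ND4 overlapped between them. MT-ND5 differed by 0.37, at 5826 ± 980 CPM in the last 29 libraries and 4511 ± 300.2 CPM in the first 31, and MT-ND3 by 0.30, at 1359 ± 192 and 1102 ± 99.0 CPM. MT-ND6, the only mRNA of the other strand, had 792 CPM at the lowest, 1090 CPM at the median and 2316 CPM at the highest in the last 29 libraries, against 668, 774 and 1083 CPM in the first 31. Its log2 difference was 0.58, and 15 of the 29 libraries lay above all of the 31. The strand setting of the counting step is not given in the sources used here, so reads of MT-ND6 cannot be told apart from antisense reads with certainty.

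Apart from MT-ATP8, the members of the other complexes lay within this range. The complex IV subunits MT-CO1, MT-CO2 and MT-CO3, its catalytic core, differed by 0.37, 0.56 and 0.36. MT-CO2, the subunit that accepts electrons from cytochrome c, had 10310 to 18274 CPM with a median of 12193 CPM in the last 29 libraries, against 7792 to 10355 CPM with a median of 8770 CPM in the first 31, so that 28 of the 29 lay above all of the 31. The counts above all of the 31 were 26 for MT-CO3 and 23 for MT-CO1. MT-CYB, the cytochrome b of complex III, differed by 0.46, with 25 of the 29 above all of the 31, and MT-ATP6, the proton channel subunit of ATP synthase, by 0.48. MT-ATP6, MT-ND2 and MT-CO1 have nuclear copies with counts of their own, at 98.5%, 98.4% and 98.7% of identical bases. MTATP6P1 had 2172 ± 545 CPM in the last 29 libraries and 1253 ± 117 CPM in the first 31, MTND2P28 had 317 ± 63.3 and 207 ± 19.2 CPM, and MTCO1P12 had 101 ± 10.0 and 101 ± 6.93 CPM. Reads could be divided between each gene and its copy by estimate, so the values of these 3 members are uncertain. MT-ATP8 has such a copy too, MTATP8P1, with 97.6% of identical bases, and reads could be divided between this pair as well. MTATP8P1 had 25 counts over all 60 libraries and at most 2 in any library, against 21409 or more for MT-ATP8. The counts of MT-RNR2, MT-ND1, MT-CO2, MT-CO3, MT-ND4, MT-ND5, MT-ND6 and MT-CYB also had a fractional part in at least 1 library. Their values too could hold divided reads.

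Members that share a precursor or an mRNA differed in proportion. The ratio of MT-ND4L to MT-ND4 counts was 0.0915 ± 0.00932 in the last 29 libraries and 0.117 ± 0.00948 in the first 31, and 19 of the 29 were below all of the 31. The ratio of MT-ATP8 to MT-ATP6 was 0.210 ± 0.0273 and 0.170 ± 0.0226, with 10 of the 29 above all of the 31. The ratio of MT-RNR2 to MT-RNR1 was 15.6 ± 0.827 and 16.96 ± 1.01, with 6 of the 29 below all of the 31. The mRNAs held 3.05 ± 0.236 times the counts of the rRNAs after the step and 2.86 ± 0.187 times before it.

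The members also followed the share at different rates among libraries of 1 side. For each doubling of the share, MT-ATP8 was higher by 1.87 on the log2 scale within the last 29 libraries and by 1.54 within the first 31, and MT-ND6 by 1.81 and 1.35. MT-ND4L was higher by 0.60 and 0.73, and MT-RNR1 by 0.57 and 0.18. The share is the sum of these genes, so the slopes are a description of their proportions. MT-ATP8 and MT-ND6 thus changed by more than the share did along these slopes, and MT-ND4L and MT-RNR1 by less, on both sides.

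The composition of mitochondrial counts was led by the large rRNA. In vehicle, MT-RNR2 gave 24.6% ± 0.545 of the counts of the 37 genes (n = 3), MT-CO1 17.5%, MT-ND4 10.5% and MT-CO3 9.88%, and MT-ND6 gave the least of the 15, 0.637% ± 0.0182. Scaled by gene length, the order of CPM per kilobase in vehicle began with MT-RNR2 at 19456 ± 499, then MT-CO3 at 15510 ± 604, MT-CO1 at 13939 ± 415 and MT-CO2 at 13627 ± 464. MT-CO1 and MT-CO2 overlapped between vehicle libraries. Below them came MT-ATP6, MT-ND4, the overlapping MT-ND1, MT-ATP8 and MT-ND2, the overlapping MT-ND4L and MT-CYB, then MT-ND3, MT-ND5, MT-RNR1 at 1762 ± 39.0 and MT-ND6 at 1493 ± 30.6. The last 29 libraries had the same order as vehicle except that MT-CO2 moved above MT-CO3 and MT-CO1, MT-ATP8 above MT-ND1, and MT-CYB above MT-ND4L.

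**Figure D3:**
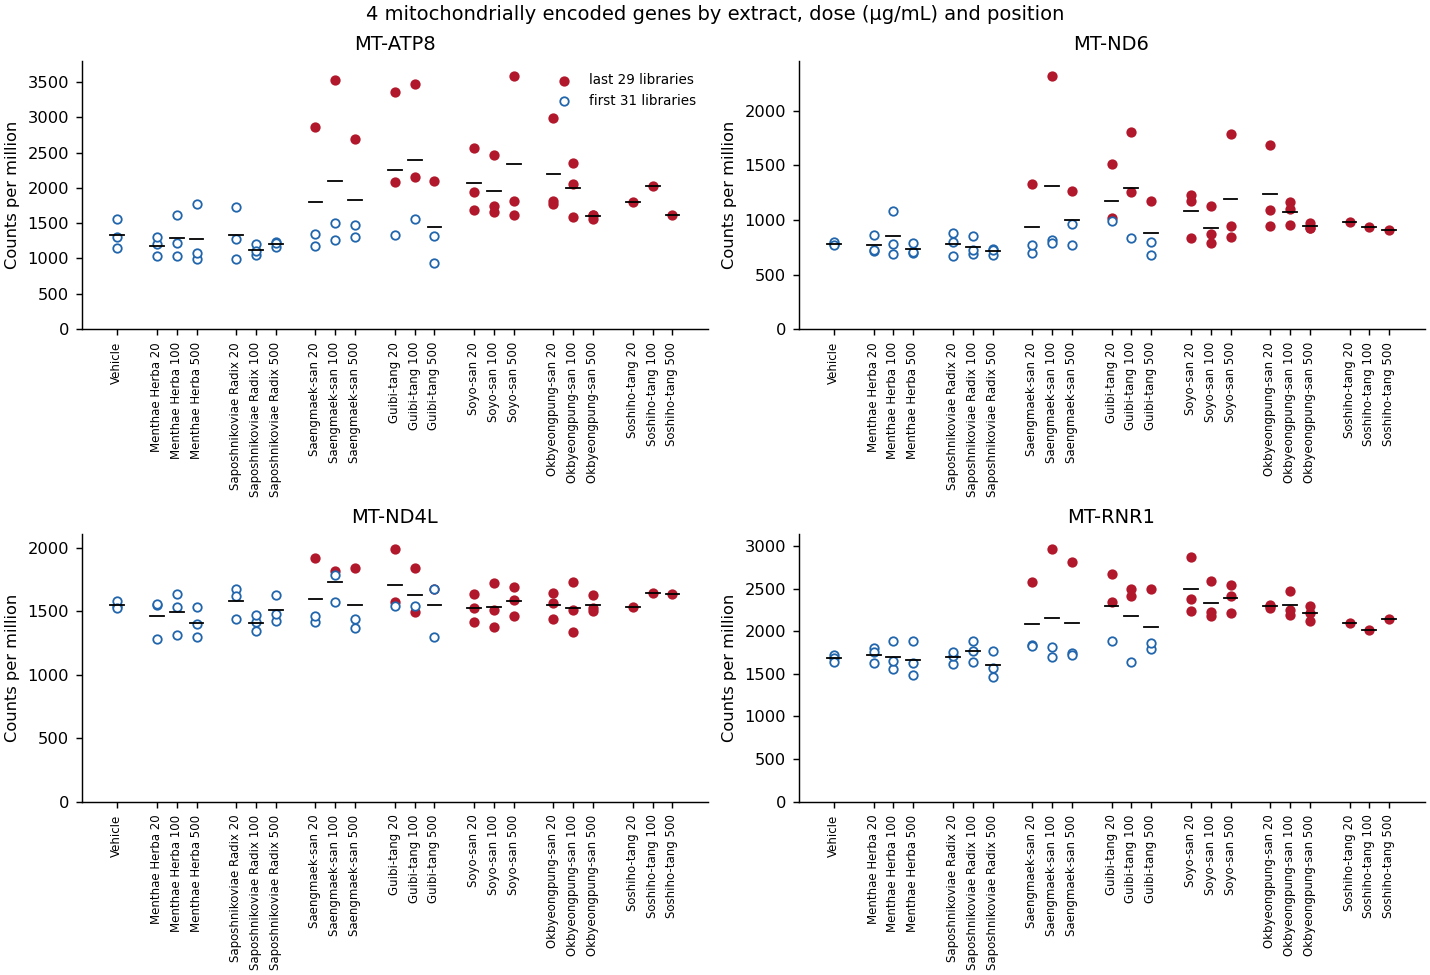
Counts per 1000000 of MT-ATP8, MT-ND6, MT-ND4L and MT-RNR1 in each library, by extract and labelled dose in µg/mL, with vehicle at the left. Filled red points are the last 29 libraries, open blue points the first 31, and black bars are group means. Within Saengmaek-san and within Guibi-tang, the later libraries lie above the earlier ones for MT-RNR1 and MT-ATP8. The MT-ND4L values overlap within Guibi-tang but not within Saengmaek-san.

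The tRNAs were close to the limit of detection. Over all 60 libraries the 22 tRNAs held 2169 counts, or 10.7 for each 1000000 counts of the 37 genes. MT-TS2, MT-TR, MT-TH, MT-TT and MT-TP were at 0 in every library, and 9 others had totals of 1 to 10 counts over the series. MT-TA, MT-TQ and MT-TS1, the tRNAs for alanine, glutamine and serine, held 84.4% of all tRNA counts. Of the tRNA counts, 97.1% came from the 8 tRNAs coded on the - strand, with 2107 counts, against 62 counts from the 14 on the + strand.
The 3 that passed the filter held most of the tRNA counts and are shown 5′ to 3′ as coded, from the - strand of chromosome MT. They are MT-TA at positions 5587 to 5655, MT-TQ at 4329 to 4400 and MT-TS1 at 7446 to 7514.
MT-TA: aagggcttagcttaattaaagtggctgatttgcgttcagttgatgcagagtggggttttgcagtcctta
MT-TQ: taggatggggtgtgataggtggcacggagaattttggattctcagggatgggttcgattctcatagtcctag
MT-TS1: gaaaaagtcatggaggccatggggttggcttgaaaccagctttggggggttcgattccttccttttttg
MT-TQ had 0.580 ± 0.327 CPM in the last 29 libraries and 0.343 ± 0.178 CPM in the first 31, MT-TA 0.540 ± 0.251 and 0.549 ± 0.205 CPM, and MT-TS1 0.157 ± 0.135 and 0.345 ± 0.172 CPM. The values of each overlapped between the sides. These levels correspond to means of 10.9, 13.3 and 6.25 counts per library, so counting error is a large part of their spread.

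Against vehicle, the members were tested for each extract at 500 µg/mL and at 20 µg/mL with edgeR's quasi-likelihood test, Benjamini-Hochberg adjusted over all 17256 genes and called at an adjusted p under 0.05. Of 37 members, 18 passed the filter, namely the 15 mRNAs and rRNAs and 3 tRNAs. At 500 µg/mL, 0 of 18 were called for any of the 6 extracts, and DESeq2 called 0 of the 15 members to which it gave an adjusted p. Of all tested genes, edgeR called 6.79% for Menthae Herba, 1.56% for Saposhnikoviae Radix, 0.614% for Saengmaek-san, 4.42% for Guibi-tang, 6.02% for Soyo-san and 3.39% for Okbyeongpung-san. At an unadjusted p under 0.05 there were 7 members for Soyo-san, 1 for Okbyeongpung-san (MT-RNR1) and 1 for Menthae Herba (MT-TS1), and 0 for the others. Of all 17256 tested genes, 3623, 2960 and 3336 were under that threshold in the same order. The other extracts had 1666 to 2928 such genes.

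These calls depended on the filter. With every gene above 0 in some library kept, edgeR tested 32 members among 37565 genes. It then called 14 members higher for Soyo-san (3.38% of tested genes called), 12 for Okbyeongpung-san (2.13%), 8 for Saengmaek-san (0.503%) and 3 for Guibi-tang (1.83%), and 9 lower for Saposhnikoviae Radix (1.44%) and 4 for Menthae Herba (2.87%). The log2 fold changes hardly moved, but that fit gave MT-ATP8 in Soyo-san an SE of 0.0537, against 0.390 with the filter.

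The direction followed the side of the step. For the herbs, whose libraries lie with vehicle before the step, the 15 mRNAs and rRNAs had log2 fold changes of -0.20 to -0.03 with a median of -0.14 (Menthae Herba) and of -0.23 to -0.08 with a median of -0.19 (Saposhnikoviae Radix). Soyo-san and Okbyeongpung-san, whose libraries lie after it, had medians of 0.51 and 0.28, with all 15 values above 0. Saengmaek-san and Guibi-tang, with libraries on both sides, had 0.20 and 0.16. Without replicate 3, the 1 library of each group that lies after the step, these medians were -0.11 and -0.15. Without replicate 2 the median of Menthae Herba was -0.22. The median over all tested genes lay between 0.00 and 0.01 in each of these comparisons.

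MT-RNR1 came closest to the threshold. It had 2539, 2409 and 2213 CPM in Soyo-san at 500 µg/mL, against 1717, 1683 and 1643 CPM in vehicle. All 3 treated libraries were higher, and the log2 fold change was 0.54 ± 0.198 (SE, n = 3 each; edgeR adjusted p = 0.0904). Okbyeongpung-san at 500 µg/mL had 2114, 2215 and 2301 CPM, also all above vehicle, with a log2 fold change of 0.41 ± 0.198 (edgeR adjusted p = 0.275). The 3 Soshiho-tang libraries, with no replicates and no test, had 2101 CPM at 20, 2013 CPM at 100 and 2142 CPM at 500 µg/mL.

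MT-ATP8 had 3580, 1621 and 1812 CPM in Soyo-san at 500 µg/mL, against 1148, 1557 and 1297 CPM in vehicle. Replicate 1 stood far above the others, and the log2 fold change was 0.86 ± 0.390 (edgeR adjusted p = 0.189). Without that library the median over the 15 genes was 0.28. In Okbyeongpung-san at 500 µg/mL MT-ATP8 had 1619, 1620 and 1564 CPM, all above vehicle, and a log2 fold change of 0.28 ± 0.388 (edgeR adjusted p = 0.766). MT-ND4L had 1689, 1465 and 1591 CPM in Soyo-san at 500 µg/mL, against 1542, 1580 and 1527 CPM in vehicle, a difference of 0.07 ± 0.145 (edgeR adjusted p = 0.835).

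At 20 µg/mL against vehicle, edgeR again called 0 of 18 members and DESeq2 0 of the 15 to which it gave an adjusted p. The share of all tested genes called by edgeR was 0.382% for Menthae Herba, 0.991% for Saposhnikoviae Radix, 0.452% for Saengmaek-san, 1.35% for Guibi-tang, 2.0% for Soyo-san and 1.09% for Okbyeongpung-san. The medians over the 15 genes were -0.07 for each herb, 0.25 for Saengmaek-san, 0.49 for Guibi-tang, 0.45 for Soyo-san and 0.49 for Okbyeongpung-san. Single libraries decided several of these: the median was -0.12 for Saengmaek-san without replicate 3, 0.31 for Guibi-tang without replicate 2 and 0.31 for Okbyeongpung-san without replicate 3. At an unadjusted p under 0.05 there were 6 members for Okbyeongpung-san, 5 for Guibi-tang and 3 for Soyo-san, and 0 for the others. Of all 17256 tested genes, 2349, 2582 and 3167 were under that threshold in the same order. The other extracts had 1536 to 1978 such genes. MT-RNR1 had 2381, 2876 and 2233 CPM in Soyo-san at 20 µg/mL, a log2 fold change against vehicle of 0.62 ± 0.198 (edgeR adjusted p = 0.0862), the lowest adjusted p of any member. At 100 µg/mL, which was not tested here, the medians against vehicle were -0.09 for Menthae Herba, -0.04 for Saposhnikoviae Radix, 0.48 for Saengmaek-san, 0.46 for Guibi-tang, 0.28 for Soyo-san and 0.38 for Okbyeongpung-san. All of these comparisons share the 3 vehicle libraries.

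Comparing 500 with 20 µg/mL within an extract removes the vehicle libraries and, for 4 extracts, the step. Again edgeR called 0 of 18 members in each extract, and DESeq2 called 0 of the 15 to 32 to which it gave an adjusted p. Of all tested genes, edgeR called 2.43% for Menthae Herba, 0.0811% for Saposhnikoviae Radix, 0.0% for Saengmaek-san, 0.997% for Guibi-tang, 0.614% for Soyo-san and 0.0985% for Okbyeongpung-san. The medians over the 15 genes were -0.06, -0.10, -0.03, -0.36, 0.07 and -0.14 in the same order. Leaving out 1 library turned the sign for Saengmaek-san, between -0.33 without replicate 3 at 500 µg/mL and 0.31 without replicate 3 at 20 µg/mL, and for Soyo-san, at -0.15 without replicate 1 at 500 µg/mL. For Okbyeongpung-san it left -0.0025 without replicate 3 at 20 µg/mL. The value of Guibi-tang stood out, ranged from -0.62 to -0.16 when single libraries were left out, and it compares 1 later and 2 earlier libraries at 500 µg/mL with 2 later and 1 earlier libraries at 20 µg/mL. MT-ATP6 gave its lowest unadjusted p, with a log2 fold change of -0.60 ± 0.256 (edgeR adjusted p = 0.371). At an unadjusted p under 0.05 that was the only member, and the other 5 extracts had 0. Of all 17256 tested genes, 1800 were under that threshold for Guibi-tang and 469 to 1969 for the other extracts.

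Adding the side of the step as a term to the same fit turned the direction for the decoctions. Its coefficients, which rest on Saengmaek-san and Guibi-tang, the extracts on both sides, were positive for all 15 genes, from 0.37 ± 0.0674 for MT-ND4L to 1.18 ± 0.150 for MT-ATP8 (SE). With the term, the medians at 500 µg/mL against vehicle were -0.09 for Saengmaek-san, -0.18 for Guibi-tang, -0.29 for Soyo-san and -0.46 for Okbyeongpung-san, and the herbs kept -0.14 and -0.19. For Okbyeongpung-san 5 of 18 members fell, namely MT-CO1, MT-CO2, MT-CO3, MT-RNR2 and MT-ATP8, where 12.5% of tested genes were called. MT-CO3 changed by -0.48 ± 0.125 (edgeR adjusted p = 0.00643) and MT-ATP8 by -0.90 ± 0.292 (edgeR adjusted p = 0.0322). The step was larger in Saengmaek-san and Guibi-tang than over all libraries, and the term applies their difference to Soyo-san and Okbyeongpung-san, which have no libraries before the step. For those extracts the effect of the extract and that of position cannot be told apart.

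**Figure D4:**
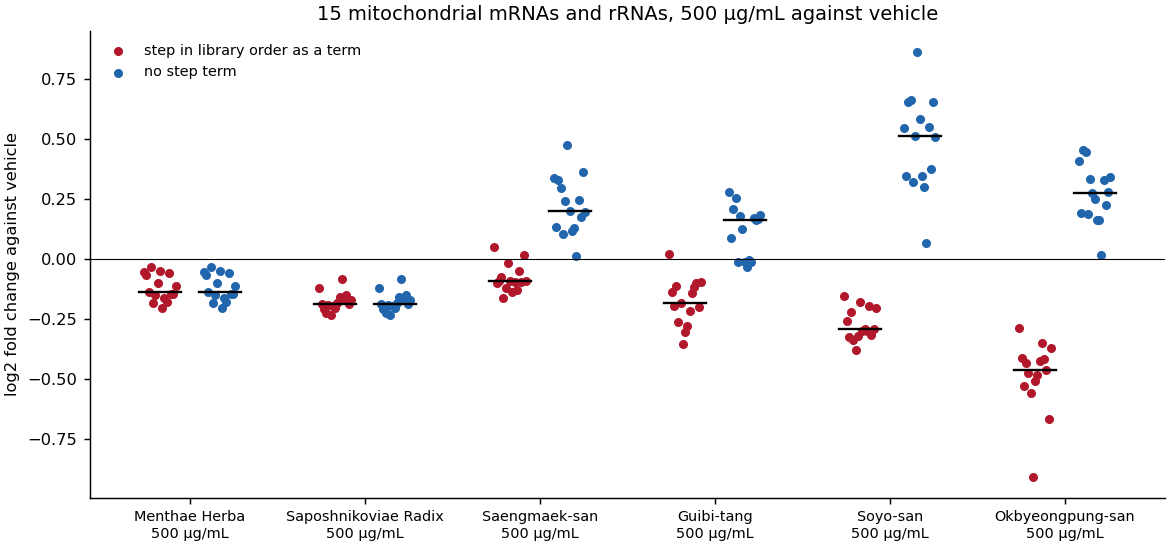
Log2 fold change against vehicle at 500 µg/mL for the 15 mRNAs and rRNAs in 6 extracts, with the step in the library order as a term (red) and without it (blue); points run in gene order and black bars are medians. The herbs have equal values in both fits, and the medians of Soyo-san and Okbyeongpung-san are -0.29 and -0.46 with the term and 0.51 and 0.28 without it.

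With the first 31 libraries alone, all of 1 side, members were called in 4 of 12 comparisons, and nearly all of them fell. For Menthae Herba at 500 µg/mL MT-CO3 fell, among 15.2% of tested genes called, by 0.20 ± 0.0663 on the log2 scale (edgeR adjusted p = 0.0382). It had 10380, 11965 and 10256 CPM in treated libraries, against 12361, 12501 and 11619 CPM in vehicle, and replicate 2 overlapped vehicle. The tRNA MT-TS1 rose by 1.46 ± 0.4996 (edgeR adjusted p = 0.0458), at 0.515, 0.205 and 0.783 CPM in treated libraries, against 0.241, 0.113 and 0.165 CPM in vehicle, which are 12, 5 and 16 counts against 7, 4 and 5 counts. For Saposhnikoviae Radix at 500 µg/mL MT-RNR2 fell, among 9.36% called, by 0.18 ± 0.0487 (edgeR adjusted p = 0.0154), with 27694, 26946 and 27986 CPM against 29659, 31183 and 30152 CPM in vehicle, without overlap.

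For Guibi-tang at 500 µg/mL, with 2 libraries there, MT-CO1 and MT-CO3 fell among 10.5% called. MT-CO1 had 19836 and 17929 CPM, against 21226, 21031 and 22225 CPM in vehicle, a change of -0.24 ± 0.0724 (edgeR adjusted p = 0.0316). MT-CO3 had 10948 and 9854 CPM, against the vehicle values above, a change of -0.28 ± 0.0746 (edgeR adjusted p = 0.0149). Both libraries were below vehicle for both genes, while the third library of that group, after the step, had 26425 and 15036 CPM and was above vehicle. In Guibi-tang 500 against 20 µg/mL, with 1 library at 20 µg/mL assumed to vary like the other groups, MT-ATP6 fell among 0.38% called, at 7050 and 5857 CPM against 10416 CPM (log2 fold change -0.75 ± 0.149, edgeR adjusted p = 0.0114). These shares of members, 1 or 2 of 18, are near the shares called over all genes, apart from the last.

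Few nuclear genes for transcription and RNA processing in mitochondria had a higher level in the later libraries. Of 15 genes for mitochondrial transcription and DNA maintenance, 1 was higher in the last 29 libraries, and the median log2 difference was -0.16. Among the 15 were POLRMT, the mitochondrial RNA polymerase, and TFAM, which packages the DNA and takes part in starting its transcription. POLRMT had 50.4 ± 4.26 CPM in the last 29 libraries and 58.0 ± 2.81 CPM in the first 31, and TFAM 86.2 ± 6.63 and 96.5 ± 2.78 CPM. Of 24 genes for mitochondrial RNA processing and stability, 1 was higher, SLIRP, at 72.4 ± 4.79 and 62.1 ± 3.58 CPM, and the median was -0.13. LRPPRC, the partner of SLIRP in stabilising mitochondrial mRNAs, had 378 ± 16.97 and 421 ± 11.4 CPM.

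Nuclear subunits of the complexes to which the 13 mRNAs contribute had medians of -0.10 over 37 genes of complex I (11 higher), -0.14 over 9 of complex III (2 higher), -0.25 over 11 of complex IV (3 higher) and -0.13 over 17 of ATP synthase (6 higher). The 78 mitochondrial ribosomal proteins had a median of -0.05, with 22 higher. Over all tested genes the median was -0.08 and 29.9% were higher, so the shares of higher genes among complex I subunits (29.7%) and ribosomal proteins (28.2%) were at that level. Per 1000000 counts outside the 37 genes, the medians of these lists were -0.09 for transcription, -0.06 for RNA processing, -0.03, -0.07, -0.19 and -0.06 for the complexes in the same order, and 0.02 for the ribosome. On that scale 48.5% of all tested genes were higher, as were 43 of 78 ribosomal proteins, 16 of 37 complex I, 3 of 9 complex III, 3 of 11 complex IV and 8 of 17 ATP synthase subunits, 3 of 15 transcription genes and 3 of 24 RNA processing genes. Among transcripts that lack a poly(A) tail or stay in the nucleus, 4 of 10 were higher and the median was -0.15. The nuclear RNA MALAT1 had 656 ± 47.2 CPM in the last 29 libraries and 580 ± 78.4 CPM in the first 31, and NEAT1 328 ± 24.6 and 358 ± 28.4 CPM. The part of RNA selection or RNA quality in the step was not tested.

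In the tests against vehicle, few of the nuclear genes for mitochondrial proteins were called. Over all tested genes, edgeR called 0.382% to 6.79% against vehicle and 0.0% to 2.43% at 500 against 20 µg/mL. At such shares, lists of this size would hold few calls too, so the low counts are no result about these lists. MTERF4, a factor of mitochondrial ribosome assembly, fell in Menthae Herba at 500 µg/mL (log2 fold change -0.20 ± 0.0574, edgeR adjusted p = 0.0216) and in Soyo-san at 500 µg/mL (-0.24 ± 0.0574, edgeR adjusted p = 0.00720), and it was the only gene of 15 in its list called in any of the 18 comparisons. None of the 24 RNA processing genes was called. ATP5F1B, the catalytic beta subunit of ATP synthase, and UQCRC2, a core subunit of complex III, fell in Soyo-san at 500 µg/mL, by 0.27 and 0.11, and UQCRH of complex III fell in Soyo-san at 20 µg/mL, by 0.19. None of the 37 complex I or 11 complex IV genes was called. Of 78 ribosomal proteins, MRPL17 fell in Soyo-san and Okbyeongpung-san at 500 µg/mL, MRPL51 in Okbyeongpung-san at 500 µg/mL, MRPS24 in Guibi-tang at 500 µg/mL and MRPL15 in Soyo-san at 20 µg/mL. The nuclear RNA NEAT1 was called more often. At 500 µg/mL it rose in Menthae Herba, Saposhnikoviae Radix and Guibi-tang (there by 0.34 ± 0.0596, edgeR adjusted p = 0.000126). At 20 µg/mL it rose in both herbs, Soyo-san and Okbyeongpung-san. KCNQ1OT1, of the same list, fell in Menthae Herba at 500 µg/mL, by 0.53.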

How the data were processed

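The measured material was total RNA of A549 cells in 60 libraries, prepared with a directional kit and sequenced as paired ends, per the labels' protocols. The deposited values are estimated counts per gene from RSEM 1.3.3 after alignment with STAR 2.7.3a, with FastQC 0.11.9 and Trim Galore 0.6.5 upstream, on GRCh38, per the submitters' processing notes. The annotation release and the strand setting of the counting are not given in the sources used here. RSEM divides reads that fit several genes by estimate, and 10.5% of the values had a fractional part. All were rounded to whole counts.

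Shares and counts per 1000000 (CPM) use the total of all 60675 genes of a library. Tests used edgeR 4.0.16 (TMM scaling, filterByExpr by group, quasi-likelihood test) in R 4.3.3 over 57 libraries in 19 groups of 3, with Benjamini-Hochberg adjustment over the 17256 genes that passed the filter and a threshold of 0.05. Soshiho-tang, with 1 library per dose, was not tested. The alternatives were DESeq2 1.42.0, RLE scaling, no filter, the position in the library order as a term, 1 side of the step alone, the replicate number as a block and leaving out single libraries. Library totals limit the precision of the tRNAs, and shares carry counting error only where counts are few.

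Deviations of same-numbered libraries from their group means were correlated at 0.12, 0.19 and 0.34 in Saengmaek-san 500 against 20 µg/mL. There replicate 3 of both doses lies after the step and the other replicates before it, and the block left the count of called members at 0. All 3 correlations were also above 0 in Saposhnikoviae Radix 20 µg/mL against vehicle, but at most 0.045. No other comparison had all 3 above 0. All 37 members are accounted for. Values by library are given for members with the largest or smallest share or step difference and for called members. The members, the nuclear gene lists and the step were chosen with earlier results of these data known. Samples with wortmannin or ethanol extracts were not analysed here.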

Additional observations from a re-analysis of the deposited data

How the results depend on the processing

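In all 18 comparisons 0 members were called, and that held with RLE scaling, with DESeq2 (members with an adjusted p) and without any single library (lowest 0, highest 0). It also held in the 4 comparisons of 500 with 20 µg/mL that the last 29 libraries alone allow. Without a filter on low counts, 14 members were called for Soyo-san, 12 for Okbyeongpung-san, 9 for Saposhnikoviae Radix, 8 for Saengmaek-san, 4 for Menthae Herba and 3 for Guibi-tang at 500 µg/mL. At 20 µg/mL these were 15 for Guibi-tang, 14 each for Soyo-san and Okbyeongpung-san, 10 for Saengmaek-san and 1 for Menthae Herba, and at 500 against 20 µg/mL 15 for Guibi-tang and 4 for Okbyeongpung-san. That fit called 0.248% to 3.38% of all genes in these comparisons, and the cause was not tested. The first 31 libraries alone gave 2 calls each for Menthae Herba and Guibi-tang at 500 µg/mL and 1 each for Saposhnikoviae Radix at 500 µg/mL and Guibi-tang at 500 against 20 µg/mL. The step as a term gave 5 for Okbyeongpung-san at 500 µg/mL. The replicate block gave 1 call each for Soyo-san at 500 and at 20 µg/mL, MT-RNR1 in both (log2 fold change 0.55, edgeR adjusted p = 0.0486, and 0.62, edgeR adjusted p = 0.0461), among 6.51% and 2.38% of all genes. The numbers do not pair these libraries.

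With the step as a term, MT-RNR1 turned to -0.15 in Soyo-san and -0.29 in Okbyeongpung-san at 500 µg/mL, and MT-ATP8 to -0.016 in Saengmaek-san, -0.35 in Guibi-tang, -0.32 in Soyo-san and -0.90 in Okbyeongpung-san. With the first 31 libraries alone MT-ATP8 was -0.30 in Guibi-tang. Leaving out single libraries gave MT-RNR1 -0.14 to 0.026 and MT-ATP8 -0.42 to 0.062 in Menthae Herba at 500 µg/mL, and MT-ATP8 -0.30 to 0.38 in Guibi-tang. Without replicate 3 the median of the 15 genes was -0.11 in Saengmaek-san and -0.15 in Guibi-tang at 500 µg/mL and -0.12 in Saengmaek-san at 20 µg/mL. These replicates lie after the step, and vehicle before it. From the rRNAs alone, the log2 ratio of the Okbyeongpung-san share at 500 µg/mL to vehicle was 0.19. From Saengmaek-san and Guibi-tang alone, the log2 difference of the share across the step was 0.59. Among alternatives chosen after seeing the data, counts scaled outside the 37 genes and leaving out the library of highest share kept the higher level of all 15 genes after the step.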

Other observations

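Genes outside the mitochondrial genome were ranked by the Pearson correlation, over the 60 libraries, of their log2 CPM with the log2 share of the 13 mitochondrial mRNAs, among the 7420 genes that averaged at least 20 CPM. The libraries of the 2 sides form separate clusters, so correlations are given within each side, as a description. All values of a library share its depth and total, and a larger mitochondrial share lowers every other CPM.

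At the top of the ranking stood RTL8A, a gene derived from a retrotransposon, with r = 0.86 over the last 29 libraries and 0.62 over the first 31. It had 73.3 CPM in the last 29 libraries and 59.1 CPM in the first 31. UBE2V1, a ubiquitin-conjugating enzyme variant, followed with 0.87 and 0.44, then F8A1 with 0.83 and 0.47. S100A11, a calcium-binding protein, had 0.76 and 0.68, at 317 CPM in the last 29 libraries and 254 CPM in the first 31. ATN1, a transcriptional corepressor, had 0.79 and 0.41.

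The lowest correlations were those of ENO1, the glycolytic enzyme enolase, with r = -0.95 over the last 29 libraries and -0.59 over the first 31. It had 1895 CPM in the last 29 libraries and 2282 CPM in the first 31. CTNNA1, the adherens junction protein alpha-catenin, had -0.95 and -0.64, and PFAS, an enzyme of purine synthesis, -0.92 and -0.66. PSMB5, a catalytic subunit of the proteasome, had -0.93 and -0.57, and PSAP, the precursor of the saposins, -0.93 and -0.63.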
